A study of Mus musculus with 16 samples.

Results

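The genes described here mark the subtypes of midbrain dopaminergic neurons. They were 10 named genes, 5 for the ventral substantia nigra pars compacta (SNc) and 5 for the ventral tegmental area or the dorsal tier of the SNc, and each was matched by symbol to 1 of the 25006 Ensembl gene IDs counted. The ventral nigral genes were Aldh1a1, Aldh1a7, Sox6, Ndnf and Anxa1, and the tegmental or dorsal genes were Otx2, Cck, Vip, Grp and Lpl. All 10 were among the 12390 genes with enough counts to be tested. Of the 10, 8 had a count in every mouse, as did 77.7% of all genes tested, and the same 8 had at least 10 counts in every mouse, as did 72.1%; Otx2 and Vip did not.

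Messenger RNA bound to tagged ribosomes (RiboTag) was sequenced from the SNc of 8 control and 8 MCU-KO mice at postnatal day 45, 30 days after the virus was injected, with 1 mouse per library. Every mouse carried a single DAT-Cre allele and received AAV9 with a Cre-dependent Rpl22l1-Myc-DDK construct under the EF1a promoter. Controls were DAT-Cre+/- and MCU-KO mice were DAT-Cre+/- MCU fl/fl, so that the mitochondrial calcium uniporter gene was deleted wherever the dopamine transporter gene drove Cre. Controls did not carry the floxed allele, and a difference in genetic background that travels with that allele cannot be told apart from loss of MCU. The dopamine transporter is made by nigral and by tegmental neurons, so Cre by itself does not restrict the tag to the SNc, and the site of injection and the dissection set which subtypes were sampled.

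Dopaminergic neurons of the ventral midbrain share the enzymes and transporters of dopamine, yet differ in their other genes by position. Neurons of the ventral SNc tier, which project to the dorsal striatum and are the most vulnerable in Parkinson's disease, carry the transcription factor Sox6 and the retinaldehyde dehydrogenase Aldh1a1, and a subset of them carries Anxa1. Many tegmental neurons carry the transcription factor Otx2 or neuropeptides such as cholecystokinin (Cck), vasoactive intestinal peptide (Vip) and gastrin-releasing peptide (Grp), and part of the dorsal nigral tier shares some of these genes. The comparison below asks whether the balance between these subtypes, as read from their markers, differed from mouse to mouse and between control and MCU-KO mice.

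Library totals ran from 18999107 to 22016362 counts in control mice and from 14129527 to 20582204 in MCU-KO mice, and 3 counts corresponded to between 0.136 and 0.212 CPM (reads scaled to a common library size). Mcu itself had 454 ± 274 normalized counts in control mice and 200 ± 139 in MCU-KO mice (mean ± SD, n = 8 each), a log2 fold change of -1.19 (95% interval -2.41 to 0.04) with an edgeR adjusted p of 1.00, and the genotypes overlapped. The unadjusted p of Mcu was 0.0569 with edgeR, 0.0405 with DESeq2 and 0.0421 with limma-voom, and Mcu was called in 0 of the settings run. Counts over the whole gene do not distinguish a transcript that lacks the deleted exons from an intact one. The study itself checked the deletion by quantitative PCR of Mcu in RiboTag mRNA and by imaging mitochondrial calcium, and reported both lower in MCU-KO mice. All 19 pan-dopaminergic markers had a count in every mouse, with Th, the rate-limiting enzyme of dopamine synthesis, at 114253 ± 16933 normalized counts in control mice. A count in every mouse was also found for 77.7% of all genes tested, all 8 astrocyte and all 8 oligodendrocyte markers. Enrichment of dopaminergic mRNA by the pull-down was not tested. RNA of other cells was also present, since the summed normalized counts of 8 oligodendrocyte markers were between 56961 and 110190 in control mice and between 67955 and 128421 in MCU-KO mice. The libraries are bulk samples, in which fewer cells of a subtype and less RNA per cell cannot be told apart. Normalized counts below are counts divided by a size factor per library.

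Aldh1a1 and Aldh1a7 are neighbouring, closely related genes, and how far the counts of each can be kept apart depends on their sequences. Aldh1a1 (ENSMUSG00000053279, GRCm38 chr19:20492715-20643465, plus strand) oxidizes retinaldehyde to retinoic acid and also detoxifies the aldehyde made from dopamine, and Aldh1a7 (ENSMUSG00000024747, chr19:20692953-20727562, minus strand) is its rodent paralog. The coding sequences of Aldh1a1-201 and Aldh1a7-201 (GENCODE M21) are each 1506 bases long and 91.6% identical, with 126 differing bases. The most different stretch of 90 bases lies at coding positions 310 to 399, in exons 3 and 4 of both transcripts, and is shown because reads from it are assigned to the right gene most easily. It spans chr19:20618018-20620055 in Aldh1a1 and chr19:20719229-20722280 in Aldh1a7, introns included, and capitals mark the 19 bases that differ.
Aldh1a1: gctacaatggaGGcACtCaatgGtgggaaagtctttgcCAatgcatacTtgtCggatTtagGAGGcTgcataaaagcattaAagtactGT
Aldh1a7: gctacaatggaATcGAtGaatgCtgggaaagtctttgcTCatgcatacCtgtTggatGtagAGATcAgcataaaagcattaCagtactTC
The longest identical run is 100 bases, at coding positions 757 to 856 in exons 8 and 9 (chr19:20629063-20630671 in Aldh1a1 and chr19:20708329-20709491 in Aldh1a7), and is shown because no read inside it can be assigned to either gene.
Aldh1a1 and Aldh1a7: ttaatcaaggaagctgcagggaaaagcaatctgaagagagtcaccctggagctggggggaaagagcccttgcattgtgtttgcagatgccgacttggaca

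Of all 50-base stretches in the transcripts of each gene, 3.06% in Aldh1a1 and 7.49% in Aldh1a7 occurred in the other gene and nowhere else in the annotated transcripts. The same search found 0 shared stretches for Sox6, Anxa1, Cck and Grp, 0.0397% for Ndnf, 0.353% for Vip and 1.40% for Lpl. For Otx2 it found 2.75%, all shared with its antisense gene Otx2os1 or with Gm49154. The strand setting of the counting is not given in the sources used here, so reads from this shared part cannot be assigned to Otx2 or to its antisense partner.

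None of the 10 genes was called between control and MCU-KO mice. With edgeR's quasi-likelihood test, 0 of the 10 genes passed an adjusted p of 0.05, where 0.178% of all 12390 genes tested did (22 genes, 0.0888% in each direction). DESeq2, which called 0.578% of the genes it tested, and limma-voom also called 0 of the 10. At an unadjusted p of 0.05, 0 of the 10 passed, against 4.41% of all genes, and the normalized counts of the genotypes overlapped for all 10, where 0.258% of all genes did not overlap. In MCU-KO mice 7 of the 10 had a higher fitted level and 3 a lower one, where 6241 of all 12390 genes tested were higher. The median log2 fold change of the 10 was 0.15, against 0.0025 over all genes. A p that misses the threshold does not show equal levels, and the 95% intervals set what remained possible: they lay within 1 log2 unit of 0 for 7 of the 10 (all 5 nigral genes, and Cck and Grp), as for 51.8% of all genes tested. The intervals of Otx2, Vip and Lpl were wider than that.

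**Figure D1:**
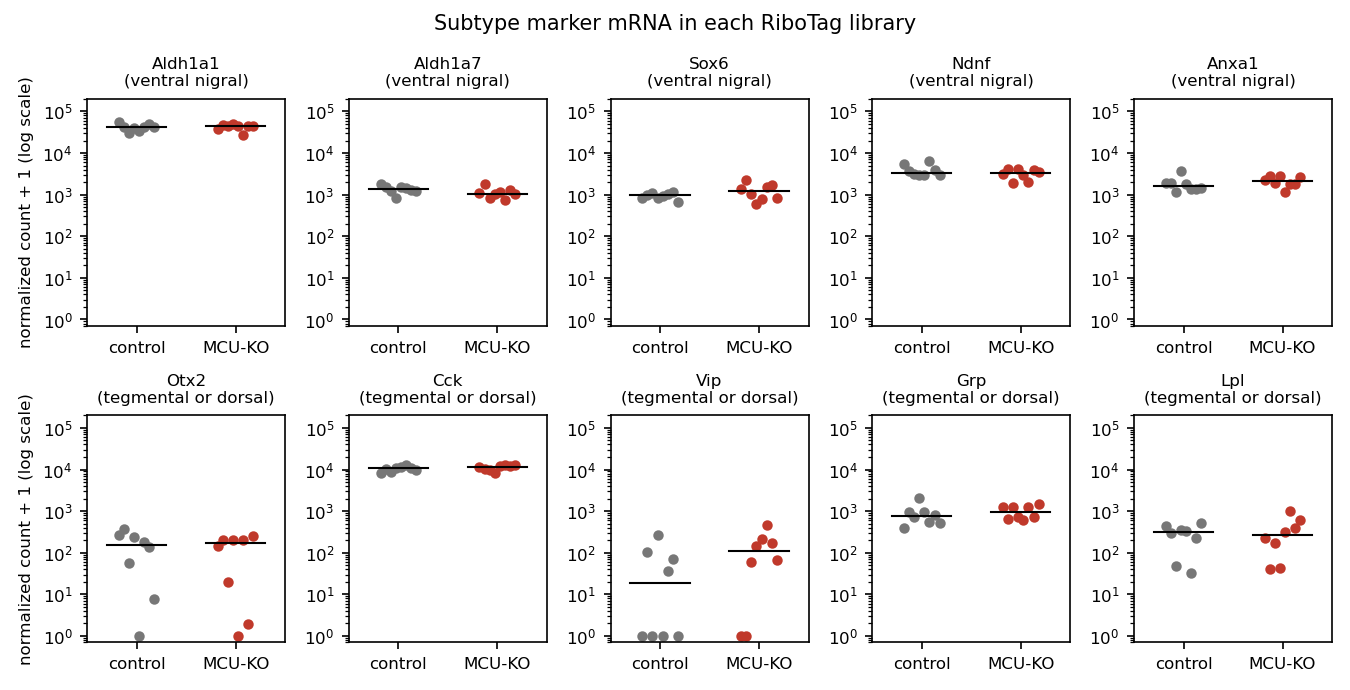
Normalized counts plus 1 (log scale) of the 5 ventral nigral genes (top) and the 5 tegmental or dorsal genes (bottom) in the 8 control (gray) and 8 MCU-KO (red) mice, with 1 point per mouse and a line at the median of each genotype. The genotypes overlap in every panel, and Otx2 and Vip reach 0 in some mice of each genotype.

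The Aldh1a pair was read first. Aldh1a1 was the most abundant of the 10 genes, with a lowest value of 31010, a median of 42415 and a highest value of 54595 normalized counts in control mice, and 27353, 44534 and 49478 in MCU-KO mice. The genotypes lay almost entirely on each other, with the highest value in control mouse 1 and the lowest in MCU-KO mouse 6. The log2 fold change was 0.01 (95% interval -0.23 to 0.25, edgeR adjusted p = 1.00), so that the interval reached from a 0.853-fold to a 1.19-fold level.

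Aldh1a7 ran from 819 through a median of 1351 to 1829 normalized counts in control mice and from 730 through 1063 to 1775 in MCU-KO mice. Most MCU-KO mice were below most controls, but 1 MCU-KO mouse was close to the highest control, and the log2 fold change was -0.28 (95% interval -0.68 to 0.11, unadjusted p = 0.151, edgeR adjusted p = 1.00). Without MCU-KO mouse 2, the highest of its genotype, the log2 fold change was -0.41, with an unadjusted edgeR p of 0.0337. That p was the smallest of the 26 settings run for Aldh1a7, which was called in 0 of them, and is given as a description. The ratio of Aldh1a1 to Aldh1a7 counts was between 22.6 and 49.7 in control mice (median 30.1) and between 26.3 and 54.3 in MCU-KO mice (median 37.9). Reads that fit both genes are part of either count if they were kept, and their number was not tested.

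The pair of transcription factors differed in level and in precision. Sox6 (ENSMUSG00000051910, chr7:115470872-116038796, minus strand), which patterns nigral neurons during development, ran from 647 through 959 to 1165 normalized counts in control mice and from 600 through 1191 to 2216 in MCU-KO mice. MCU-KO mice spread over the control range and well above it, with a coefficient of variation of 43.6% against 17.6% in controls. The log2 fold change of 0.42 (95% interval -0.07 to 0.91) had the smallest unadjusted p of the 10 genes, 0.0891 (edgeR adjusted p = 1.00). It was 0.25 without MCU-KO mouse 2, the highest, and 0.52 without MCU-KO mouse 4, the lowest, with an unadjusted edgeR p of 0.0278. That p was the smallest of the 26 settings run for Sox6, which was called in 0 of them, and is given as a description.

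Otx2 (ENSMUSG00000021848, chr14:48657677-48673819, minus strand), a homeobox gene of tegmental neurons, was 0 in 1 control and 1 MCU-KO mouse. Its median was 154 and its highest value 365 normalized counts in control mice, against 170 and 254 in MCU-KO mice. Within each genotype some mice had ample counts and others nearly none, and the log2 fold change of -0.28 had a 95% interval of -2.50 to 1.94 (edgeR adjusted p = 1.00).

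Of the remaining nigral genes, Anxa1 and Ndnf were at intermediate levels. Anxa1 (ENSMUSG00000024659, chr19:20373428-20390944, minus strand), which encodes a calcium-dependent phospholipid-binding protein, ran from 1137 through 1646 to 3676 normalized counts in control mice and from 1169 through 2074 to 2826 in MCU-KO mice. The highest of all 16 values was in control mouse 4, and the log2 fold change was 0.23 (95% interval -0.23 to 0.68, edgeR adjusted p = 1.00). Without control mouse 4 it was 0.45, with an unadjusted edgeR p of 0.0237. That p was the smallest of the 26 settings run for Anxa1, which was called in 0 of them, and is given as a description.

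Ndnf (ENSMUSG00000049001, chr6:65671590-65712326, plus strand), which encodes a secreted neurotrophic factor, ran from 2884 through 3383 to 6428 normalized counts in control mice and from 1888 through 3271 to 4216 in MCU-KO mice. The highest values were in controls and the lowest in MCU-KO mice, with a log2 fold change of -0.29 (95% interval -0.69 to 0.12, edgeR adjusted p = 1.00). Without control mouse 6, the highest, it was -0.15.

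Among the neuropeptides, Cck was by far the most abundant and Vip the least. Cck (ENSMUSG00000032532, chr9:121489824-121495694, minus strand) ran from 8374 through 10609 to 12625 normalized counts in control mice and from 8385 through 11718 to 12673 in MCU-KO mice. These ranges nearly coincided, its coefficients of variation of 13.6% and 14.1% were the lowest of the 10 genes in each genotype, and the log2 fold change was 0.11 (95% interval -0.10 to 0.32, edgeR adjusted p = 1.00).

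Grp (ENSMUSG00000024517, chr18:65872820-65886596, plus strand) ran from 382 through 759 to 2021 normalized counts in control mice and from 614 through 975 to 1451 in MCU-KO mice. Controls spanned a wider range than MCU-KO mice, with the highest value in control mouse 4, and the log2 fold change was 0.20 (95% interval -0.41 to 0.81, edgeR adjusted p = 1.00). It was 0.50 without control mouse 4, and between 0.09 and 0.12 without control mouse 1 or 8 or MCU-KO mouse 8.

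Vip (ENSMUSG00000019772, chr10:5639218-5647617, plus strand) was 0 in 4 of 8 control and 2 of 8 MCU-KO mice. Its median was 17.4 and its highest value 264 normalized counts in control mice, against 107 and 460 in MCU-KO mice. The values were scattered in both genotypes, and the log2 fold change of 1.23 had a 95% interval of -1.71 to 4.18 (edgeR adjusted p = 1.00). It was 2.20 without control mouse 4 and 0.66 without MCU-KO mouse 6, and reached from 0.62 with glial markers as a covariate to 3.42 with the replicate block.

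Lpl (ENSMUSG00000015568, chr8:68880491-68907448, plus strand), lipoprotein lipase, which releases fatty acids from lipoprotein particles and is also made by microglia and other glia, ran from 31.7 through 320 to 532 normalized counts in control mice and from 39.9 through 271 to 981 in MCU-KO mice. The highest value was in MCU-KO mouse 6, and the log2 fold change was 0.30 (95% interval -0.99 to 1.58, edgeR adjusted p = 1.00). Without that mouse it was -0.13.

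**Figure D2:**
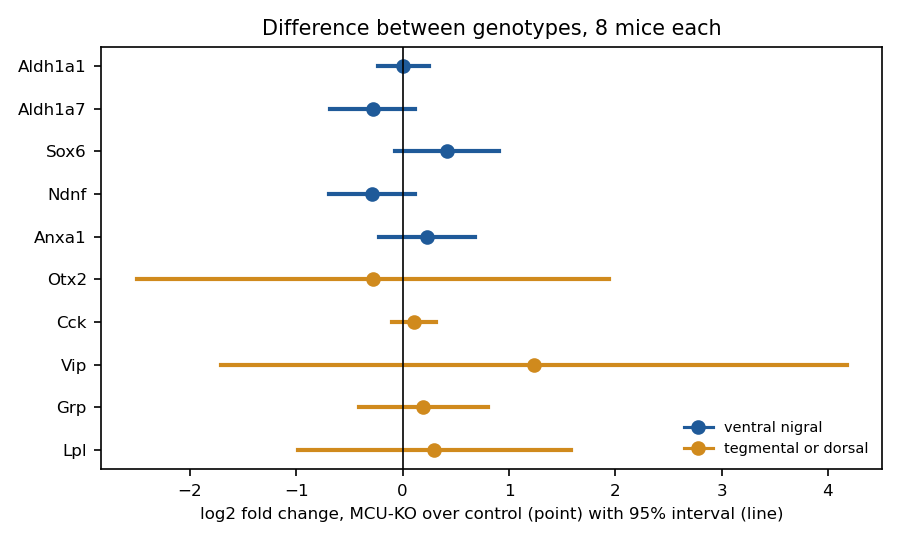
Log2 fold change of each gene, MCU-KO over control, from the edgeR fit (point) with its 95% interval (line), for 8 mice per genotype, with nigral genes in blue and tegmental or dorsal genes in orange. All 10 intervals include 0, and those of Otx2, Vip and Lpl extend past 1 log2 unit.

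To compare levels between genes, normalized counts were divided by the exon length of each gene in kb. In control mice the order was Aldh1a1 (8571 ± 1529 normalized counts per kb, SD, n = 8), Cck (7930 ± 1078), Aldh1a7 (655 ± 142), Anxa1 (630 ± 274), Grp (584 ± 345), Ndnf (388 ± 130), Sox6 (63.2 ± 11.1), Otx2 (36.7 ± 30.9), Lpl (27.0 ± 16.6) and Vip (17.5 ± 26.9). Aldh1a1 was above 99.1% of all genes tested on this scale and Cck stood close to it, so the nigral and the tegmental list each held 1 gene among the most abundant of these libraries. On this scale Aldh1a1 exceeded Cck in 4 of 8 mice, so these neighbours were not separated. Divided instead by the length of the longest protein-coding transcript, Aldh1a1 exceeded Cck in 8 of 8 mice (mean log2 ratio 0.46 ± 0.34, SD, exact permutation p = 0.0078, adjusted p = 0.00977), so their order depends on the length used. Cck exceeded Aldh1a7 in 8 of 8 mice, and Ndnf exceeded Sox6 in 8 of 8 mice. The genes from Aldh1a7 down to Ndnf, and those from Sox6 down to Vip, did not differ from their neighbours in every mouse on the scale of exon length. With transcript length Anxa1 stood above Aldh1a7 and Lpl above Otx2 in the order of means, and Anxa1 exceeded Grp in 8 of 8 mice (mean log2 ratio 0.82 ± 0.54, SD, exact permutation p = 0.0078, adjusted p = 0.00977).

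Across the 25 pairs of a nigral with a tegmental or dorsal gene, the nigral gene was higher in 15 and the tegmental gene in 5 (exact sign-flip permutation test over 8 control mice, two-sided, adjusted p under 0.05 over the 25 pairs). The smallest p that 8 mice allow is 0.0078. Apart from Aldh1a1 over Grp, each of the 15 had Otx2, Vip or Lpl, the genes with the lowest counts, as its tegmental gene. Vip was 0 in 4 of 8 control mice and Otx2 in 1, and there the ratio depends on the pseudocount of 1. With a pseudocount of 5 the numbers were again 15 and 5. The 25 pairs share genes, so they are not independent. All 4 nigral genes other than Aldh1a1 were below Cck in 8 of 8 mice. Sox6 was also below Grp in 8 of 8 mice, with a mean log2 ratio of -3.06 ± 0.73 (SD, exact permutation p = 0.0078, adjusted p = 0.0109). Aldh1a1 was above Otx2, Vip, Grp and Lpl in 8 of 8 mice, and its mean log2 ratio to Grp was 4.03 ± 0.86 (exact permutation p = 0.0078, adjusted p = 0.0109). In MCU-KO mice the same counts were 15 and 6, and with transcript length in control mice they were 16 and 5.

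**Figure D3:**
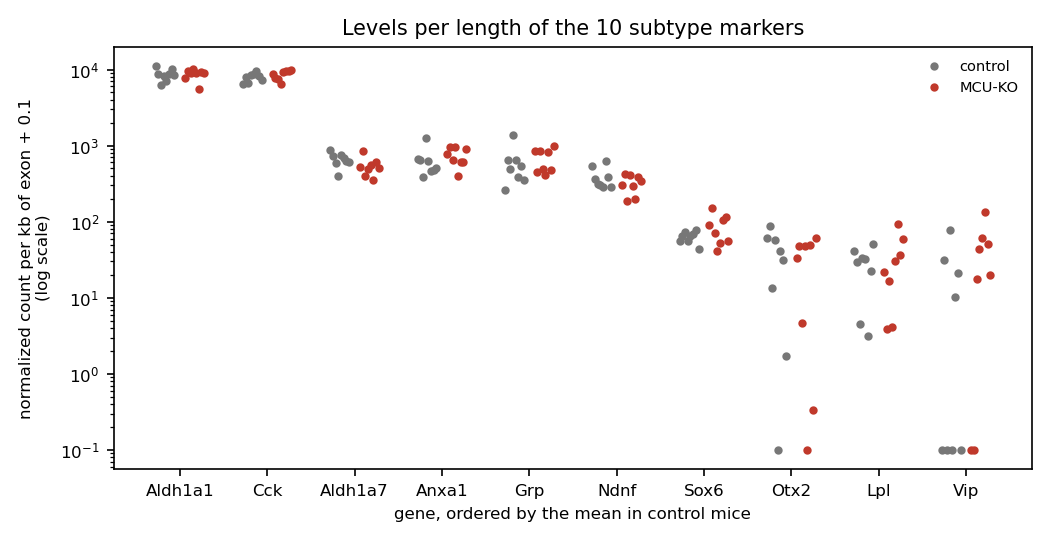
Normalized counts per kb of exon plus 0.1 (log scale) of the 10 genes, ordered from left to right by the mean in control mice, with 1 point per mouse (control gray, MCU-KO red). Aldh1a1 and Cck stand above the other 8 genes in every mouse, and points at the bottom for Otx2 and Vip are mice with a count of 0.

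The composition of each mouse was expressed as the log2 ratio of the summed level per kb of the 5 nigral genes to that of the 5 tegmental or dorsal genes. The ratio was 0.26 ± 0.33 in control mice, from -0.10 to 0.96, and 0.14 ± 0.43 in MCU-KO mice, from -0.66 to 0.77 (mean ± SD, n = 8 each). The difference of -0.12 was smaller than the SD of either genotype, and the ranges overlapped. It was -0.02 without control mouse 1, the mouse with the highest ratio, and -0.01 without MCU-KO mouse 6, the mouse with the lowest. The ratio rested on a pair of genes, because Aldh1a1 made up between 79.8% and 87.4% of the nigral sum and Cck between 84.5% and 95.7% of the tegmental sum. Without Aldh1a1 the difference was -0.19, without Cck it was -0.30, and between mean log2 CPM values, which weight the genes of each list equally, it was -0.38. No p is given for this ratio, since it is a score over chosen genes.

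MCU-KO mouse 6 stood apart in several of the 10 genes, and was looked at after its values were seen. Of the 16 mice it had the lowest normalized counts of Aldh1a1 (27353) and Aldh1a7 (730), the second lowest of Ndnf (1982) and the highest of Vip (460) and Lpl (981). Sox6, Anxa1, Otx2, Cck and Grp were not at either end in this mouse, with ranks from 3 to 10 counted from the highest. Its mean log2 CPM of the 19 pan-dopaminergic markers was 8.15, against 8.43 ± 0.11 in control and 8.41 ± 0.16 in MCU-KO mice (n = 8 each). MCU-KO mouse 8 was close to it at 8.22. The level of Slc17a6, the vesicular glutamate transporter of midbrain and hypothalamic neurons, was 1971 normalized counts in MCU-KO mouse 6, the highest of the 16. Markers of other cells were also above the mean of each genotype in this mouse. Astrocyte markers had a mean log2 CPM of 6.92, against 5.98 ± 0.51 in control and 6.31 ± 0.46 in MCU-KO mice. Microglia markers were at 5.35, against 4.20 ± 0.64 and 4.77 ± 0.49. The MCU-KO means include this mouse. The part of these other cells in the composition of this mouse was not tested.

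**Figure D4:**
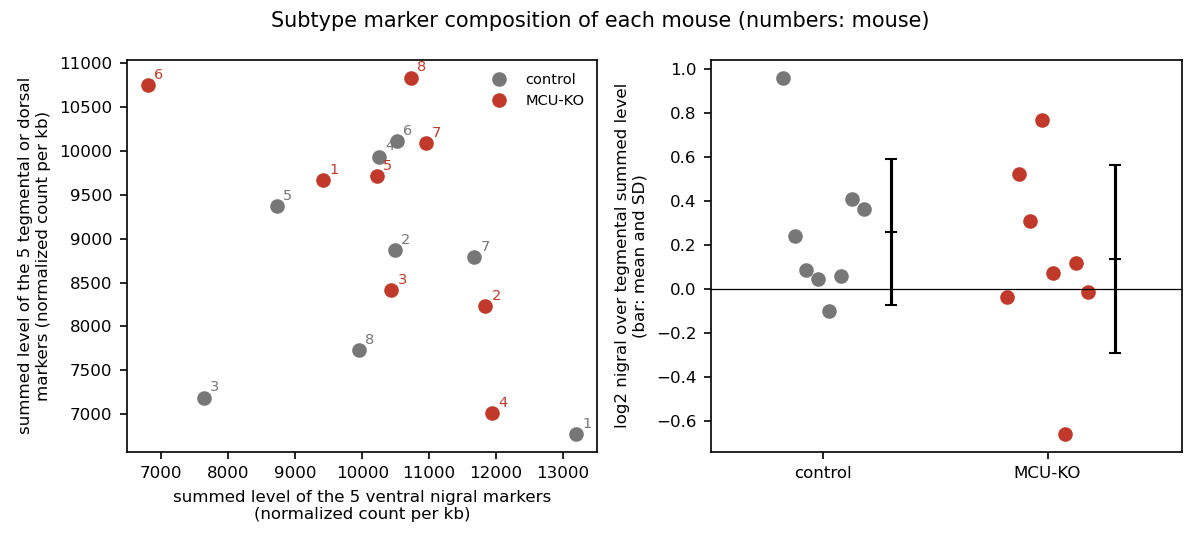
Left, summed level of the 5 nigral genes (x axis) against that of the 5 tegmental or dorsal genes (y axis), in normalized counts per kb, with each mouse numbered. Right, their log2 ratio by genotype, with the mean and SD beside the points. Control mouse 1 has the highest ratio, 0.96, MCU-KO mouse 6 the lowest, -0.66, and the genotypes overlap.

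Whether genes of one subtype rose and fell together was asked over the 16 mice, on log2 CPM with the mean of each genotype removed and mice permuted within genotype. Of the 45 pairs of genes, 5 passed an unadjusted p of 0.05 and 0 passed after adjustment over the 45 pairs. Within the nigral list 7 of 10 pairs had a positive r (median 0.16), within the tegmental list 8 of 10 did (median 0.26), and across the lists 10 of 25 did (median -0.11). Points share their library, so depth and other features of a library enter every gene.

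The largest correlation joined Aldh1a7 and Grp in opposite directions (r = -0.69, permutation p = 0.0045, adjusted p = 0.177; rho = -0.56, permutation p = 0.0324, adjusted p = 0.365). It was -0.76 within control and -0.64 within MCU-KO mice, and without the 2 mice farthest from the median of Aldh1a7 it was -0.46, so it rested partly on those mice. Aldh1a7 and Ndnf rose together (r = 0.66, permutation p = 0.0078, adjusted p = 0.177; rho = 0.62, permutation p = 0.0155, adjusted p = 0.297), with r = 0.51 in control mice, 0.79 in MCU-KO mice and 0.67 without the 2 farthest mice. Aldh1a1 and Ndnf had r = 0.61 (permutation p = 0.0150, adjusted p = 0.225; rho = 0.62, permutation p = 0.0119, adjusted p = 0.297) and 0.49 without the 2 farthest mice. Ndnf and Grp had r = -0.55 (permutation p = 0.0324, adjusted p = 0.351; rho = -0.45, permutation p = 0.0875, adjusted p = 0.607) and -0.51 without the 2 farthest mice. Aldh1a7 and Vip had r = -0.54 (permutation p = 0.0390, adjusted p = 0.351; rho = -0.37, permutation p = 0.175, adjusted p = 0.763), and -0.14 without the 2 farthest mice, so that this relation rested on them. Anxa1 and Otx2, 1 gene of each list, had r = 0.51 (permutation p = 0.0573, adjusted p = 0.404; rho = 0.59, permutation p = 0.0198, adjusted p = 0.297). Their r was 0.23 within control mice, 0.81 within MCU-KO mice and 0.31 without the 2 farthest mice.

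Each gene was also set against the mean log2 CPM of 8 classes of marker genes, and 4 of these 80 pairs passed an unadjusted p of 0.05 and 0 an adjusted one. That is the share that a threshold of 0.05 passes by chance, so the 4 are described and none is taken as established. Vip followed Slc17a6, the only glutamatergic marker with a count in every mouse (r = 0.62, permutation p = 0.0108, adjusted p = 0.501; rho = 0.58, permutation p = 0.0240, adjusted p = 0.808), but r was 0.35 without the 2 farthest mice. Aldh1a1 followed the pan-dopaminergic markers (r = 0.61, permutation p = 0.0138, adjusted p = 0.501; rho = 0.50, permutation p = 0.0538, adjusted p = 0.808), and r was 0.13 without the 2 farthest mice, so that this relation rested on them. Ndnf also followed the pan-dopaminergic markers (r = 0.54, permutation p = 0.0399, adjusted p = 0.797; rho = 0.54, permutation p = 0.0397, adjusted p = 0.808), with r = 0.51 without the 2 farthest mice. Otx2 followed the astrocyte markers (r = 0.60, permutation p = 0.0188, adjusted p = 0.501; rho = 0.58, permutation p = 0.0207, adjusted p = 0.808), with r = 0.55 without the 2 farthest mice. Otx2 is also made by choroid plexus and ependyma, whose 7 markers summed to between 1.03 and 136 normalized counts in control mice and between 22.4 and 171 in MCU-KO mice, with Ccdc153 at 0 in every mouse. Lpl, also made by glia, had r = 0.05 with microglia and -0.24 with astrocyte markers. With oligodendrocyte markers its r was -0.08 and with oligodendrocyte precursor markers -0.21, and none of these passed an unadjusted permutation p of 0.05.

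**Figure D5:**
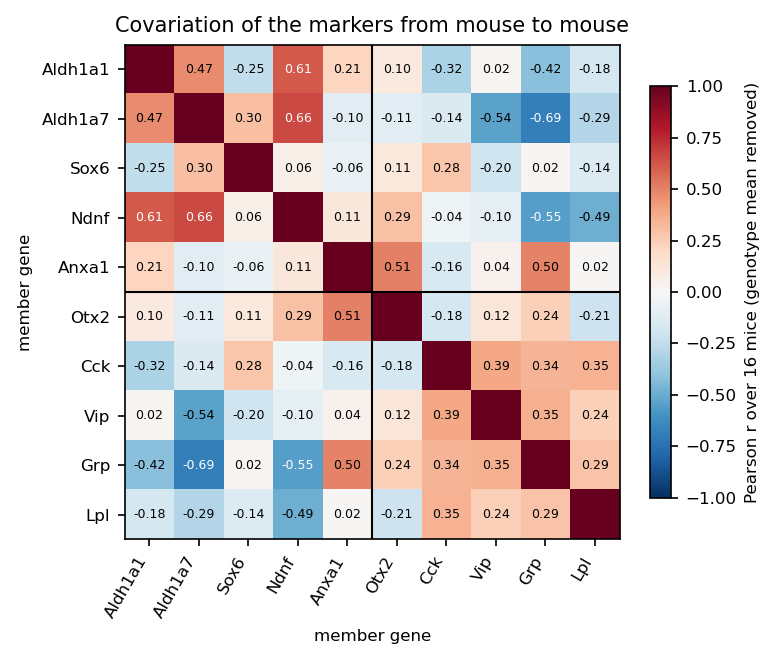
Pearson r over the 16 mice between the 10 genes, on log2 CPM with the genotype mean removed (color and number), with black lines between the nigral and the tegmental or dorsal genes. The strongest values join Aldh1a7 with Grp (-0.69) and Aldh1a7 with Ndnf (0.66), and 0 of the 45 pairs passed an adjusted p of 0.05.

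For each gene the most similar genes were sought among 8936 genes with at least 10 counts in every mouse, by r over the same 16 mice, as a description without a test. The highest of so many r over 16 mice is large even for unrelated genes, and how large by chance was not tested. Aldh1a1 was most like Zdhhc2 (r = 0.90) and Shtn1 (r = 0.87). Ndnf was most like Slc10a4 (r = 0.85) and Chrna6 (r = 0.81), both of which are pan-dopaminergic markers, Chrna6 being a nicotinic receptor subunit. Otx2 was most like Smad3 (r = 0.83), Grp most like Mmaa (r = 0.83), and Lpl most like Car8 (r = 0.83), a carbonic anhydrase-related protein. The highest r of the other 4 genes compared was between 0.79 and 0.82. Vip had too few mice with 10 counts to be compared.

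Anxa1, Aldh1a1 and Aldh1a7, 3 of the 5 nigral genes, lie within 354 kb of chromosome 19, with gaps of 102 kb and 49.5 kb between them. Their log2 fold changes of 0.23, 0.01 and -0.28 pointed in different directions and none was called. The only other genes counted in this span, 1500015L24Rik and C730002L08Rik, reached at most 122 and 104 counts in any mouse.

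Further markers of the same subtypes were read from the same fit. Of 17 other nigral subtype genes tested, edgeR called 0, DESeq2 and limma-voom called 0 and 0 had an unadjusted p under 0.05, and the smallest p belonged to Tmem200a (log2 fold change 1.15, 95% interval -0.03 to 2.32). Of 20 other tegmental or dorsal genes tested, edgeR called 1, the neurokinin 3 receptor gene Tacr3 (chr3:134829007-134934579, plus strand), and DESeq2 and limma-voom each called 1. An unadjusted p under 0.05 was reached by 2 of the 20. Over all 12390 genes tested, edgeR called 0.178%, and 4.41% had an unadjusted p under 0.05. The lists were chosen with earlier results of these data known, so the call of Tacr3 cannot count as an independent result. In control mice Tacr3 had 1204 ± 317 normalized counts and in MCU-KO mice 2578 ± 895 (SD, n = 8 each), a log2 fold change of 1.10 ± 0.21 (SE; 95% interval 0.67 to 1.53, edgeR adjusted p = 0.0177), or 2.14-fold. Its values reached from 630 to 1709 in control mice and from 1696 to 3919 in MCU-KO mice, so the genotypes met only at their edges.

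Tacr3 was not called when glial markers were a covariate (log2 fold change 1.06, edgeR adjusted p = 0.117), nor without MCU-KO mouse 5 (0.99, edgeR adjusted p = 0.0546) or MCU-KO mouse 6 (0.99, edgeR adjusted p = 0.0541). Another 3 called genes lie on the same chromosome, the nearest 4.10 Mb away. Tacr3 mRNA rose while the median log2 fold change of the 20 tegmental or dorsal genes was 0.03, and the most abundant of them were not called, with Calb2 at 10895 ± 2142 and 10642 ± 2353, Calb1 at 6364 ± 1782 and 7846 ± 1746 and Cdh13 at 6748 ± 798 and 6549 ± 946 normalized counts in control and MCU-KO mice.

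Genes that act with the 10 markers were described by list, and in each list edgeR, DESeq2 and limma-voom called 0 genes. For comparison, 4.41% of all genes tested had an unadjusted p under 0.05. Of 12 genes of retinoic acid synthesis and signaling tested, 0 had an unadjusted p under 0.05 (median log2 fold change -0.05), and Fabp5, a carrier of fatty acids and retinoic acid, was the most abundant at 5913 ± 426 normalized counts in control mice. Of 10 other aldehyde dehydrogenases, 0 had an unadjusted p under 0.05 (median -0.10), including Aldh2, the mitochondrial enzyme, at 1277 ± 429 normalized counts in control and 1056 ± 283 in MCU-KO mice. Peptide processing was represented by 12 genes, with 0 at an unadjusted p under 0.05 and all 12 intervals within 1 log2 unit of 0, and Cpe, carboxypeptidase E, had 39968 ± 7864 normalized counts in control mice.

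Of 7 listed receptors for the 3 peptides and related peptides, 3 were tested and 0 had an unadjusted p under 0.05. Adcyap1r1, a receptor of the related peptide PACAP that binds VIP only weakly, had 2017 ± 439 normalized counts in control and 2354 ± 473 in MCU-KO mice, while Cckbr and Vipr2 were each at 0 in 5 of 16 mice. Of 6 annexins and partners tested, 0 had an unadjusted p under 0.05. Of 9 partners of Lpl, 1 did: Apoe, the glial apolipoprotein, at 14314 ± 3361 normalized counts in control and 18221 ± 5804 in MCU-KO mice (log2 fold change 0.35, 95% interval 0.01 to 0.69, edgeR adjusted p = 1.00). Of 5 relatives of Sox6 and Otx2 tested, 0 had an unadjusted p under 0.05. All 5 had a positive log2 fold change, as did 6241 of all 12390 genes tested (median 0.63, against 0.0025 over all genes). These relatives were low: 3 of the 5 had a count in every mouse and 2 had at least 10. The 95% interval lay within 1 log2 unit of 0 for 1 of the 5, so no shift is read from the shared direction. Otx1 had the highest of these, 2.25, with a 95% interval of -0.69 to 5.19 and 0 counts in 5 mice. Of the 19 pan-dopaminergic markers, 0 had an unadjusted p under 0.05 and all 19 intervals lay within 1 log2 unit of 0.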

How the data were processed

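RiboTag-bound polyA RNA from the SNc of 8 control and 8 MCU-KO mice was analyzed (the study describes 1 more MCU-KO mouse, which was not analysed here). The deposited values are raw counts per Ensembl gene, which the authors made by trimming adapters, aligning to mm10 with STAR and counting with HTSeq; versions, strand setting and Ensembl release are not given in the sources used here. GENCODE M21 (GRCm38) gave symbols, coordinates and exon lengths. Groups came from the sample labels, and each library is 1 mouse. The 10 genes and the gene lists were chosen with earlier results of these data known.

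Genes passing filterByExpr (12390) were tested with edgeR 4.0.16 (TMM, quasi-likelihood test, Benjamini-Hochberg adjustment over all genes tested, threshold 0.05) in R 4.3.3. Normalized counts are counts divided by DESeq2 size factors. DESeq2 1.42.0 and limma 3.58.1 (voom) were alternatives, as were other normalizations, filters, covariates, a replicate block and leaving out each mouse; runs without MCU-KO mouse 6 in the correlations and with transcript lengths were added after the data were seen. Correlations used log2 CPM (prior count 2) and 100000 permutations of mice within genotype. Level ratios used a pseudocount of 1 and 256 sign patterns. Scripts were tested on simulated data. All members and the genes with the smallest p or highest mean of each list are named. Depth was between 14129527 and 22016362 counts per library, and limits based on 3 counts cover counting error only.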

Additional observations from a re-analysis of the deposited data

Results flagged for a closer look

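Within each genotype of 8 mice, 5 values stood apart from the nearest other mouse by more than Dixon's 95% limit, in 24 groups examined. Chance gives about 1.2 if values are normally distributed and groups independent. Counts are skewed, Vip was 0 in 4 control mice and the groups share mice, so an excess over 1.2 cannot be read from this. Control mouse 4 held 3 of them: Anxa1 at 3676 normalized counts (next control mouse 1914), Vip at 264 (next 106) and Grp at 2021 (next 954). MCU-KO mouse 6 had 460 normalized counts of Vip (next MCU-KO mouse 209). MCU-KO mouse 8 had the smallest library, 14129527 counts (next 19897268).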

How the results depend on the processing

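None of the 10 subtype markers was called under any alternative run, and the numbers of gene pairs separated by level and of correlations past the adjusted threshold stayed within 1.5 times their value. The composition difference stayed negative, between -0.01 and -0.38, and always moved by less than the spread between mice. Over all genes, edgeR called 22, DESeq2 90 and the replicate block 14, and leaving out 1 mouse at a time gave between 18 and 24. Mouse numbers did not pair the genotypes: correlations between same-numbered mice, over 8936 genes, were between -0.07 and 0.06, and 1 of 8 mice was most like its own number. The direction turned for Aldh1a1, Otx2 and Lpl. Leaving out 1 mouse moved the log2 fold change of Aldh1a1 between -0.0447 and 0.0812, of Otx2 between -0.50 and 0.0350 and of Lpl between -0.13 and 0.50, and with the replicate block Lpl was at -0.0288; the cause was not tested. Tacr3 stayed higher in MCU-KO mice in all 26 settings, with log2 fold changes between 0.99 and 1.19, and was called in 23. Otx2 and Vip gave no value with at least 10 counts required in every mouse. Otx2 and Vip had mice at 0 counts. MCU-KO mouse 8, the smallest library, had 184 counts of Otx2 and 49 of Vip. Control mouse 5, with 20810138 counts in total, had 0 of each. The part of depth in these zeros was not tested.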

Other observations

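Markers of other cell classes, which the pull-down carried beside the dopaminergic mRNA, were read from the same fit, and 0 were called by edgeR, DESeq2 or limma-voom. In the microglia list 1 of 8 genes tested had an unadjusted p under 0.05, the complement gene C1qc, at 309 ± 207 normalized counts in control and 685 ± 263 in MCU-KO mice (SD, n = 8 each; log2 fold change 1.15, 95% interval 0.30 to 2.00, edgeR adjusted p = 0.849). In the astrocyte list 1 of 8 did, the glutamate transporter Slc1a2, at 6283 ± 1585 and 7784 ± 1499 normalized counts (log2 fold change 0.31, edgeR adjusted p = 1.00). None of the 8 oligodendrocyte, 4 oligodendrocyte precursor, 6 vascular, 7 GABAergic, 3 glutamatergic, 1 choroid plexus and ependyma and 1 serotonergic or noradrenergic genes tested had an unadjusted p under 0.05. Over all genes tested, 4.41% had one. Median log2 fold changes were 0.40 for microglia, 0.26 for astrocytes and 0.11 for oligodendrocytes, against 0.0025 over all genes. Slc17a6 and Neurod6 stand in both the glutamatergic and the tegmental or dorsal lists.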
